A study of Mus musculus with 10 samples.

Results

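The Tet3 knockout given the Wnt inhibitor Dkk was set against wild type on day 6 of neural differentiation, to describe which genes still differed from wild type under Wnt inhibition and which went past it. The comparison used 2 of the 10 libraries of the series. Of 21937 genes listed, 11373 reached 1 RPKM (reads scaled to transcript length and library total) in at least 1 of the 2 libraries and were compared. The cells were mouse embryonic stem (ES) cells of C57BL/6 background in SFEB culture, in which cells float as aggregates without serum and become neuroectoderm. The tested library came from Tet3 KO cells with Dkk on day 6, and its counterpart from untreated wild-type cells on day 6. The KO line came from mice with floxed Tet3 alleles, and transient expression of Cre had removed the floxed exon. The labels do not say whether the line was 1 clone or several, nor which Dkk protein was used or at what dose. Untreated Tet3 KO cells on day 6, and Tet3 KO cells with Dkk, Tet3 KO cells and wild-type cells on day 10, served for orientation, with 1 library each. No wild-type culture with Dkk was analysed here, so genotype, cell line and treatment cannot be told apart.

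TET3 belongs to the enzymes that convert methylcytosine in DNA to oxidised forms. Wnt proteins are secreted ligands that bind Frizzled and LRP receptors, stabilise beta-catenin and let it act with TCF and LEF factors on target genes; Dkk proteins bind the LRP coreceptors from outside the cell and block this step. In the early embryo Wnt signalling helps to form the primitive streak and to give neural tissue a posterior character, and low Wnt activity at the front end permits forebrain.

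With 1 library a side there is no replicate error and no test, and every value below describes these libraries. A difference is log2(RPKM + 0.5) of the Dkk-treated knockout minus that of wild type, which understates the change of genes with low values. A gene was counted as higher or lower at 2-fold or more. Intervals in brackets are 95% intervals of the log2 ratio of estimated reads. They cover counting error alone and use no pseudocount, so for genes with few reads they can lie beyond the difference given. Reads were estimated from RPKM with the median length of the annotated transcripts of each gene. That length can differ from the one behind the RPKM, so read numbers and interval widths are approximate. Estimated depth was 10500000 reads in the Dkk-treated knockout and 10100000 in wild type on day 6. On day 10 it was 36800000, 10800000 and 11300000 reads in the Dkk-treated knockout, the untreated knockout and wild type. The 10 most abundant genes held 6.49% of summed RPKM in the Dkk-treated knockout and 6.43% in wild type on day 6.

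Tet3 itself had 7.64 RPKM in the Dkk-treated knockout, 6.59 in the untreated knockout and 8.11 in wild type on day 6. These are values of the whole gene, so they do not check the removal of 1 exon. Neural progenitor markers were abundant on both sides: Sox1, a transcription factor of early neuroectoderm, had 32.53 RPKM in the Dkk-treated knockout and 44.81 RPKM in wild type. Nes, which encodes the progenitor filament nestin, had 47.70 RPKM in the Dkk-treated knockout and 57.27 RPKM in wild type. The labels call the cells embryonic stem cells. The naive ES cell gene Nanog had 0.55 RPKM in the Dkk-treated knockout and 0.29 RPKM in wild type, below 1 RPKM in both. Zfp42, another naive gene, had 0.36 and 1.20 RPKM in the same order, a difference of -0.98, and lies on chromosome 8. Pou5f1, which early epiblast cells also express, had 58.09 RPKM in the Dkk-treated knockout and 35.78 RPKM in wild type.

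The Dkk-treated knockout was close to wild type for most genes. In all, 188 genes (1.65% of those compared) were at least 2-fold higher and 110 (0.967%) at least 2-fold lower. These shares are the background for every day 6 count of list genes below. On the same genes the untreated knockout had 356 (3.13%) at least 2-fold higher and 268 (2.36%) lower than the same wild-type library. That is 5.49% in either direction against 2.62% with Dkk. Genes at 1 RPKM or more in the untreated knockout alone, such as Hoxb9 with 60.74 RPKM there, are not among the genes compared. The untreated count of higher genes leaves them out. The median difference was 0.02 for the Dkk-treated knockout, with quartiles of -0.15 and 0.20, and -0.01 for the untreated one. Of the 188 higher genes, 163 were protein-coding, 75 reached 5 RPKM, and 158 of the 185 with a known length had a counting interval off 0. Of the 110 lower genes, 62 were protein-coding, 43 were small RNA genes out of 123 compared, 35 reached 5 RPKM, and 66 of 108 had an interval off 0. The lower calls thus rest more often on few reads. Slc2a1, the glucose transporter GLUT1, lay just inside the 2-fold limit with 501.68 RPKM in the Dkk-treated knockout and 249.08 RPKM in wild type (1.01), and Otx2 just outside it (0.99).

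**Figure D1:**
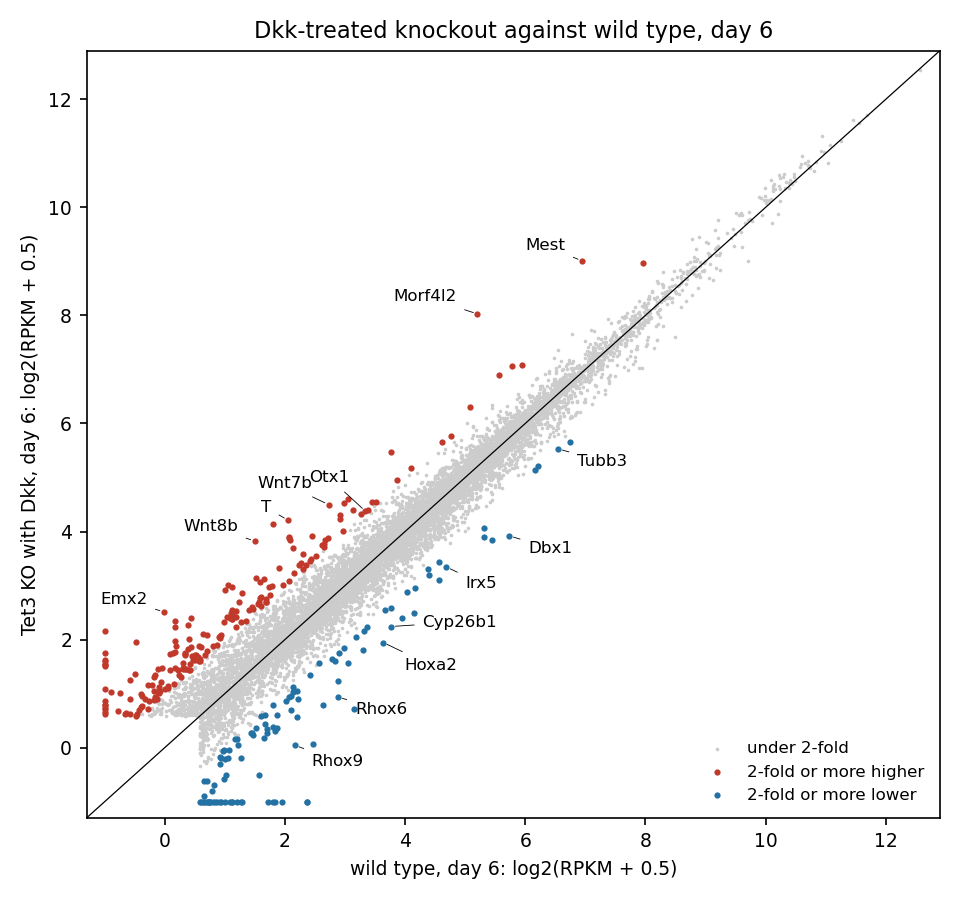
Expression in the Tet3 KO with Dkk (vertical axis) and in wild type (horizontal axis) on day 6, both as log2(RPKM + 0.5), for the 11373 genes compared, 1 point a gene. The line marks equal values; 188 genes are 2-fold or more higher (red) and 110 lower (blue), and points on the lowest edge of either axis are listed at 0 in that library.

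Relative to wild type, 127 genes (1.12%) were 2-fold or more away in the same direction without and with Dkk, 74 of them higher and 53 lower. Another 12 genes (0.106%) were on opposite sides of wild type without and with Dkk, 9 higher and 3 lower with Dkk. The remaining 159 genes, 105 higher and 54 lower, passed 2-fold with Dkk while the untreated knockout was within 2-fold. Both knockout differences share the wild-type library, so an error in that library would enter both in the same direction. Among genes that stayed different, 19 of the 74 higher and 16 of the 53 lower genes were farther from wild type with Dkk than without it.

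T, also called brachyury, a transcription factor of the primitive streak and a known Wnt target, had 18.01 RPKM in the Dkk-treated knockout, 37.20 in the untreated knockout and 3.64 in wild type, a difference of 2.16 [1.71 to 2.95]. The Dkk-treated level thus lay between the other libraries. Wnt8b, a Wnt ligand of the developing forebrain, lay on the far side instead: it had 13.66 RPKM in the Dkk-treated knockout, 0.77 in the untreated knockout and 2.32 in wild type (2.33 [2.12 to 3.03]). The promoter sequences of both genes are shown because T is the known Wnt target with the highest difference, and Wnt8b had the highest difference of the genes that went past wild type. They are RefSeq sequences of the GRCm38.p6 build, from 250 bases before to 50 after the gene start, both on the plus strand, at chr17:8434173-8434472 for T and chr19:44493222-44493521 for Wnt8b. Capitals mark CTTTGA or its reverse complement TCAAAG, the core letters that TCF and LEF factors are known to bind, which were the only letters searched, on both strands.
T promoter: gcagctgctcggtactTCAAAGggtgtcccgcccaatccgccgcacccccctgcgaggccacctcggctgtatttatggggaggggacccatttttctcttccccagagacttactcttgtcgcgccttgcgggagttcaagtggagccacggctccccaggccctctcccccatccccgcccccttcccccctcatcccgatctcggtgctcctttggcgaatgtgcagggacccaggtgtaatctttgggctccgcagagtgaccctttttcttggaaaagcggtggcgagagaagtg
Wnt8b promoter: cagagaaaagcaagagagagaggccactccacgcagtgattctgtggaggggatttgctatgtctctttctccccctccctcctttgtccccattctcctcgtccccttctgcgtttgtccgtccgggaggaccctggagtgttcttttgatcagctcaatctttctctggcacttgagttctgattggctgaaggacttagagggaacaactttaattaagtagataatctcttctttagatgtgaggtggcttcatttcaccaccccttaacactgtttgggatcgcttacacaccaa
The T window holds 1 match, at position 17 from its 5′ end, and the Wnt8b window holds none. Such a match is common: it occurs in 16.0% of all 32851 promoters and in 11.1% of the 9012 promoters matched to genes compared. Among genes with a promoter entry it occurs in 12 of 132 higher genes (9.09%) and 3 of 48 lower genes (6.25%), so neither group stood above the share of all genes compared.

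Of 24 listed primitive streak and early mesoderm genes, 10 reached 1 RPKM, 2 of them were called higher and none lower, beside 1.65% and 0.967% over all genes. Their median was 0.62, or 0.49 over all 24 without the limit of 1 RPKM. The median of the same 10 genes in the untreated knockout was 1.42. The second gene called higher was Eomes, a T-box factor of streak, endoderm and cortical progenitors. It had 2.27 RPKM in the Dkk-treated knockout, 1.20 in the untreated knockout and 0.47 in wild type. Eomes thus passed the limit through the Dkk-treated knockout alone. Mesp1 and Tbx6, which mark nascent and paraxial mesoderm, had 0.00 and 0.55 RPKM in the Dkk-treated knockout and 0.09 and 0.23 RPKM in wild type, below the limit in both. The summed level of the 24 genes was 62.45 RPKM in the Dkk-treated knockout and 36.03 RPKM in wild type. In bulk RNA, more cells of a type and more RNA per cell cannot be told apart.

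Cer1, a secreted antagonist of Wnt, Nodal and BMP made in endoderm and nascent mesoderm, had 3.39 RPKM in the Dkk-treated knockout, 12.44 in the untreated knockout and 0.22 in wild type (2.43 [2.47 to 5.82]). Aplnr, the apelin receptor of mesoderm and vessels, had 4.55, 22.69 and 0.63 RPKM in the same libraries (2.16 [1.99 to 3.79]). Both were high in the untreated knockout, lower with Dkk and still well above wild type. Meox1, a homeobox gene of the somites, kept a small remainder, with 1.44 RPKM in the Dkk-treated knockout, 161.58 in the untreated knockout and 0.27 in wild type (1.33 [1.18 to 3.99]). Aldh1a2, which makes retinoic acid in mesoderm, had 1.41, 74.24 and 0.39 RPKM in these libraries (1.10 [0.77 to 3.11]). On the linear scale the Dkk-treated level of these last genes was thus far nearer to wild type than to the untreated knockout, although both still passed 2-fold. Of the 17 listed paraxial mesoderm and somite genes, 6 reached 1 RPKM, and 2 of these (Cer1 and Meox1) were higher and none lower, beside 1.65% and 0.967% over all genes. Both passed the limit through the Dkk-treated knockout alone; the median was 0.65 over the 6 genes and 0.05 over all 17.

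Posterior Hox genes, which pattern trunk and spinal cord, were near 0 in both libraries. None of 21 listed posterior members reached 1 RPKM in the Dkk-treated knockout or wild type; their levels summed to 1.14 RPKM with 14 listed at 0 in the Dkk-treated knockout and to 2.48 RPKM with 9 at 0 in wild type. Hoxb9 had 0.10 RPKM in the Dkk-treated knockout, 60.74 in the untreated knockout and 0.51 in wild type. Cdx2, a homeobox regulator of posterior Hox genes, had 1.27, 20.38 and 0.82 RPKM in the same libraries.

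Anterior Hox genes pattern the hindbrain, and those measured at 1 RPKM or more lay below wild type. Hoxa2 had 3.35 RPKM in the Dkk-treated knockout, 16.45 in the untreated knockout and 11.94 in wild type (-1.69 [-2.28 to -1.43]). Hoxb2 had 1.55, 23.57 and 3.91 RPKM in these libraries (-1.11 [-1.90 to -0.77]), and Hoxa3 had 0.37, 7.61 and 1.58 RPKM (-1.26 [-3.54 to -0.88]). Of 11 listed anterior Hox genes, these 3 were the ones to reach 1 RPKM. All 3 were lower in the Dkk-treated knockout than in wild type by 2-fold or more, beside 0.967% over all genes. Hoxa3 passed the limit of 1 RPKM through wild type alone, so it could not be called higher. The median over all 11 was -0.35, since most were near 0 in both libraries. On day 10 the same 3 genes were again lower, with differences of -2.21 for Hoxa2, -2.06 for Hoxb2 and -2.03 for Hoxa3, beside 1.30% of genes lower at 2-fold on that day.

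Some other genes of caudal neural tissue lay lower as well. Of 20 listed hindbrain and spinal cord genes, 12 reached 1 RPKM. None was higher and 3 were lower, beside 1.65% and 0.967% over all genes. The 12 genes had a median of -0.38, against 0.04 for the same genes in the untreated knockout. Over all 20 the median was -0.26. Dbx1, a homeobox gene of interneuron progenitors, had 14.62 RPKM in the Dkk-treated knockout, 31.29 in the untreated knockout and 52.88 in wild type (-1.82 [-2.04 to -1.67]). Gbx1, a homeobox gene of the spinal cord, had 0.77, 3.40 and 2.76 RPKM in these libraries (-1.36 [-2.51 to -1.23]). It passed the limit of 1 RPKM through wild type alone, so it could not be called higher. Irx5, an Iroquois factor, had 9.64, 11.15 and 25.30 RPKM (-1.35 [-1.61 to -1.18]). Irx5 and its neighbour Irx3 (-0.98) lie on chromosome 8, whose genes were lower as a whole, as described further on; without chromosome 8 the count of lower genes in this list is 2. Cyp26b1, which breaks down retinoic acid and marks hindbrain segments, had 4.23 RPKM in the Dkk-treated knockout, 14.98 in the untreated knockout and 13.14 in wild type (-1.53 [-1.88 to -1.39]). By day 10 Dbx1 stood at 65.90 RPKM in the Dkk-treated knockout and 71.54 RPKM in wild type, a difference of -0.12, while Gbx1 kept a difference of -1.47 and Cyp26b1 of -0.98.

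Several forebrain genes lay on the other side, above wild type. Of 22 listed genes, 12 reached 1 RPKM. Of these, 6 were higher and none lower, beside 1.65% and 0.967% over all genes. Differences of the 12 genes ran from 0.26 to 2.53, with a median of 1.01. Without the limit the median over all 22 was 0.60, with 7 called higher. The untreated knockout had a median of -0.75 on the same 12 genes, with 5 lower. Emx2, a homeobox gene of the dorsal telencephalon, had 5.20 RPKM in the Dkk-treated knockout, 1.01 in the untreated knockout and 0.49 in wild type (2.53 [2.33 to 4.63]). Barhl2, a homeobox gene of the diencephalon, had 2.07, 0.08 and 0.21 RPKM in these libraries (1.86 [1.95 to 4.95]). Otx1, a homeobox gene of forebrain and midbrain, had 20.28, 0.99 and 9.63 RPKM (1.04 [0.87 to 1.29]). The Dkk-treated knockout was the highest of the day 6 libraries for each of these genes. Fezf1, a zinc finger gene of the rostral forebrain, had 2.80 RPKM in the Dkk-treated knockout, 0.21 in the untreated knockout and 0.76 in wild type (1.39 [1.16 to 2.76]). Eomes, which the streak list also holds, was called as well. Emx2, Barhl2, Fezf1 and Eomes passed the limit of 1 RPKM through the Dkk-treated knockout alone, so they could not be called lower.

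Otx2, which specifies forebrain and midbrain, had 64.16 RPKM in the Dkk-treated knockout, 5.27 in the untreated knockout and 32.03 in wild type (0.99 [0.81 to 1.20]). The anterior marker Six3 had 1.27, 0.37 and 0.43 RPKM in these libraries (0.93). Neither passed 2-fold on day 6, but both lay above wild type, as did each of the 12 forebrain genes compared. Wnt7b, Wnt8b and Dmrt3, which the next paragraphs describe, are also known from forebrain.

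**Figure D2:**
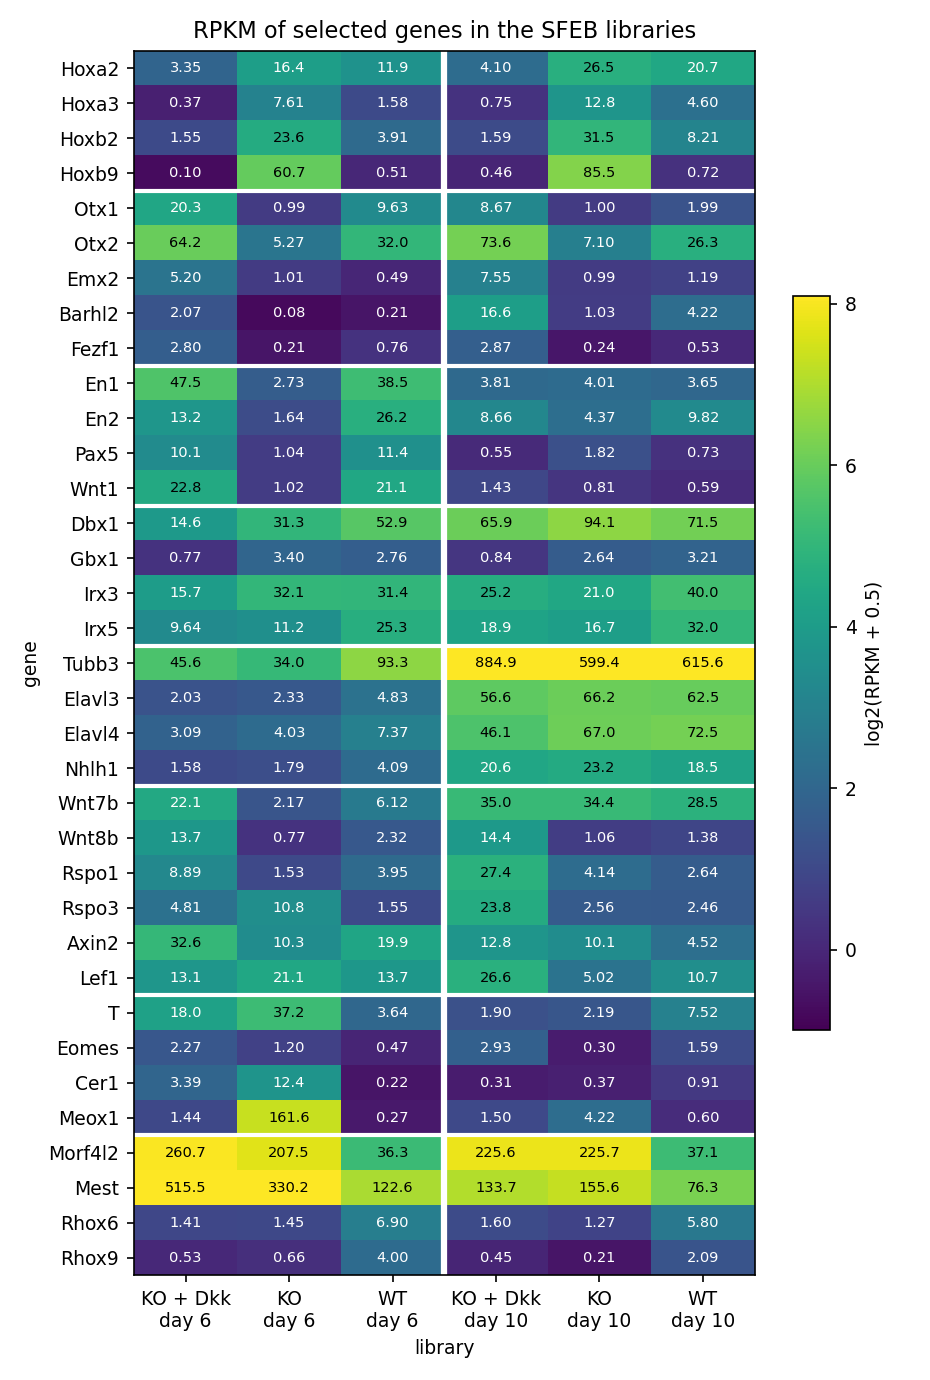
RPKM of selected genes (vertical axis) in the 6 SFEB libraries (horizontal axis), with Tet3 KO with Dkk, Tet3 KO and wild type on each day, coloured by log2(RPKM + 0.5); genes are grouped from top to bottom as Hox, forebrain, midbrain, caudal neural, neuron, Wnt, streak and other. Emx2 has 5.20 RPKM in the Dkk-treated knockout against 0.49 in wild type on day 6, and Hoxa2 has 3.35 against 11.94.

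Genes of the midbrain and its boundary with the hindbrain were near wild type. Of 18 listed genes, 17 reached 1 RPKM, with a median of 0.16 in the Dkk-treated knockout and -1.10 in the untreated knockout. En1, a homeobox gene of that region, had 47.53 RPKM in the Dkk-treated knockout, 2.73 in the untreated knockout and 38.48 in wild type. Wnt1, a ligand of the same boundary, had 22.77, 1.02 and 21.10 RPKM in these libraries. En2, the paralog of En1, was the lowest of the list with 13.23 RPKM in the Dkk-treated knockout and 26.24 RPKM in wild type (-0.96). The 1 gene past 2-fold was Lmx1a, a factor of the roof plate and of dopamine neuron progenitors. Lmx1a had 1.57 RPKM in the Dkk-treated knockout, 1.56 in the untreated knockout and 0.38 in wild type (1.23 [1.11 to 3.0]). It passed the limit of 1 RPKM through the Dkk-treated knockout alone, so it could not be called lower.

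Among Wnt ligands, 11 of 19 reached 1 RPKM. Of these, 2 were higher and 1 lower, beside 1.65% and 0.967% over all genes. In all, 10 of the 11 lay above 0, with a median of 0.60, or 0.58 over all 19. The untreated knockout had a median of -0.37 on the same 11 genes. Wnt7b, a ligand of forebrain and vessel patterning, had 22.10 RPKM in the Dkk-treated knockout, 2.17 in the untreated knockout and 6.12 in wild type (1.77 [1.62 to 2.09]). With Wnt8b it makes a pair of ligands that was lower than wild type without Dkk and higher with it. Wnt7a, a close paralog of Wnt7b, was lower, with 1.12 RPKM in the Dkk-treated knockout and 3.79 RPKM in wild type, from 3 and 11 estimated reads (-1.40 [-4.41 to -0.01]). On day 10, when 4.00% of genes were higher at 2-fold, 6 of the 11 ligands were higher and none lower, with a median of 1.09. Wnt8b reached 14.39 RPKM in the Dkk-treated knockout, 1.06 in the untreated knockout and 1.38 in wild type on day 10 (2.99), whereas Wnt7b had 34.95, 34.35 and 28.47 RPKM (0.29).

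R-spondins, secreted proteins that raise the level of Wnt receptors at the cell surface, were the receptor-side genes that differed. Among 24 listed receptors and enhancers 21 reached 1 RPKM, with a median of 0.08. Of these, 2 were higher and none lower, beside 1.65% and 0.967% over all genes. Rspo1 had 8.89 RPKM in the Dkk-treated knockout, 1.53 in the untreated knockout and 3.95 in wild type (1.08 [0.66 to 1.72]). Rspo3 had 4.81, 10.78 and 1.55 RPKM in these libraries (1.37 [1.04 to 2.26]). Rspo2 had 7.97, 0.32 and 5.19 RPKM (0.57 [0.34 to 0.90]). The untreated knockout was lowest for Rspo1 and Rspo2 and highest for Rspo3, while the Dkk-treated knockout was above wild type for each. On day 10 the differences from wild type were 3.15 for Rspo1, 3.05 for Rspo2 and 3.04 for Rspo3, with 27.37, 40.86 and 23.84 RPKM in the Dkk-treated knockout and 2.64, 4.48 and 2.46 RPKM in wild type. Frizzled receptors and the coreceptor Lrp5 stayed within 2-fold, from -0.33 for Fzd7 to 0.83 for Fzd5. The coreceptor Lrp6 was also within 2-fold, at -0.49. It lies at the end of chromosome 6, a stretch where most genes were lower, as described further on. Wls, the carrier that Wnt ligands need for secretion, was named after its value was seen: it had 135.76 RPKM in the Dkk-treated knockout, 64.86 in the untreated knockout and 60.85 in wild type (1.15 [1.07 to 1.25]). It lies at the end of chromosome 3, a stretch that was higher as a whole.

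Genes that Wnt signalling is known to induce did not share 1 direction. Of 23 listed targets and feedback genes, 19 reached 1 RPKM, 1 (T) was higher and none lower, with a median of 0.24. Axin2, a feedback inhibitor widely read as a Wnt reporter, had 32.65 RPKM in the Dkk-treated knockout, 10.27 in the untreated knockout and 19.89 in wild type (0.70 [0.47 to 0.97]). Lef1, a partner of beta-catenin and itself a target, had 13.13, 21.06 and 13.71 RPKM in these libraries (-0.06). Sp5, a zinc finger target, had 6.08, 3.41 and 3.69 RPKM (0.65). The Dkk-treated knockout thus had the highest Axin2 and Sp5 of the day 6 libraries, and Lef1 was close to wild type. Dkk1, an endogenous Wnt inhibitor and itself a Wnt target, had 4.82 RPKM in the Dkk-treated knockout, 1.99 in the untreated knockout and 2.54 in wild type (0.81). On day 10 Axin2 had 12.84, 10.13 and 4.52 RPKM (1.41).

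**Figure D3:**
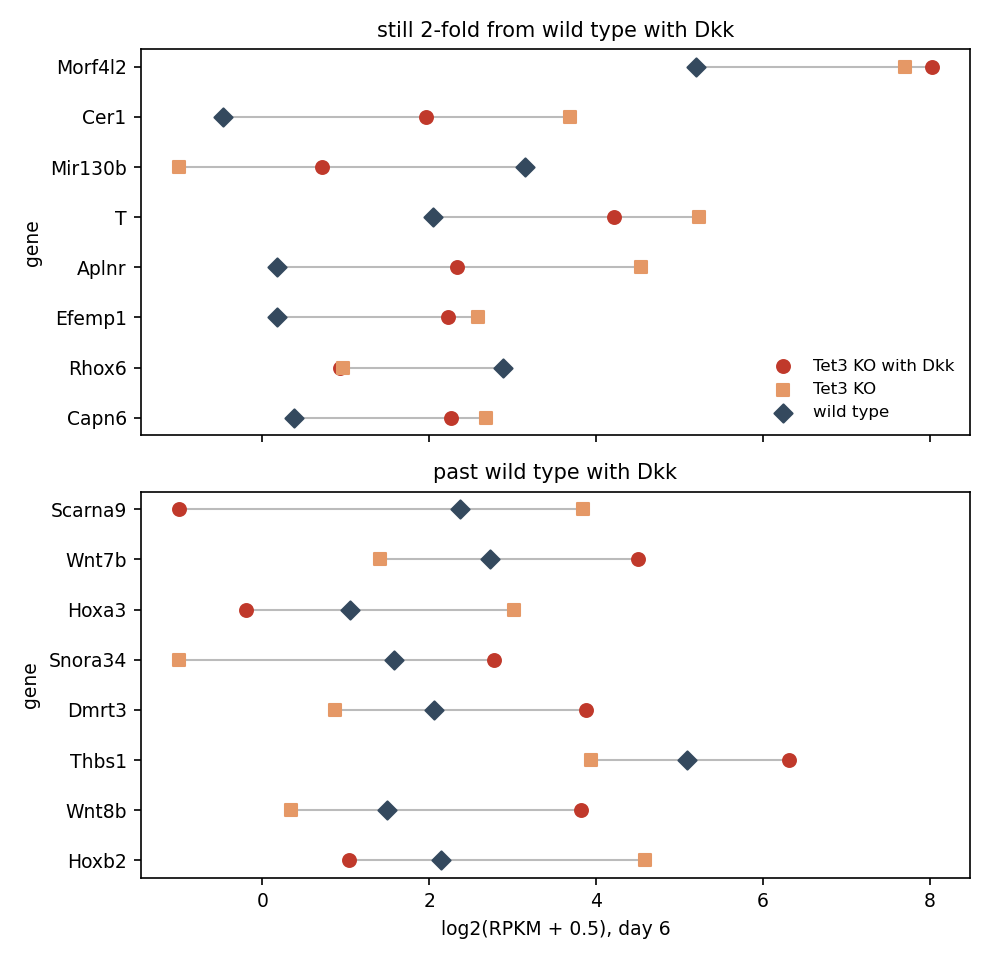
Levels on day 6 as log2(RPKM + 0.5) (horizontal axis) of 8 genes still 2-fold from wild type with Dkk (upper panel) and 8 on opposite sides of wild type without and with Dkk (lower panel), with 1 point each for Tet3 KO with Dkk, Tet3 KO and wild type. In the lower panel wild type lies between the knockout libraries for each gene, which the choice of these genes fixes; Mir130b, Scarna9 and Snora34 rest on under 10 estimated reads in the day 6 comparison.

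Of the 12 genes that went past wild type, Wnt7b, Wnt8b, Hoxa3, Hoxb2, Otx1 and Rspo1 are given above. Dmrt3, a DM-domain factor of the dorsal telencephalon and spinal interneurons, had 14.19 RPKM in the Dkk-treated knockout, 1.33 in the untreated knockout and 3.68 in wild type (1.81 [1.50 to 2.42]), and its day 10 difference was 2.23. Thbs1, which encodes the matrix protein thrombospondin, had 79.07, 14.80 and 33.51 RPKM on day 6 (1.23 [1.14 to 1.34]) and a difference of -0.25 on day 10. Irs4, an adaptor of insulin receptor signalling on the X chromosome, had 19.43, 1.13 and 9.15 RPKM (1.05 [0.94 to 1.23]). Samd5 had 2.52, 0.23 and 0.98 RPKM (1.03 [0.81 to 1.97]). The 2 small RNA genes of the group, Scarna9 and Snora34, had intervals that include 0. On day 10, 5 of the 9 genes higher with Dkk and 2 of the 3 lower ones were again past 2-fold in the same direction.

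Some genes differed from wild type by a similar amount in each knockout library. Morf4l2, an X-linked subunit gene of a histone acetyltransferase complex, had 260.72 RPKM in the Dkk-treated knockout, 207.48 in the untreated knockout and 36.32 in wild type on day 6 (2.83 [2.68 to 3.01]). On day 10 it had 225.62, 225.70 and 37.08 RPKM (2.59). Morf4l2 was thus high in the 4 knockout libraries and low in both wild-type libraries, and it had the largest difference among genes at 5 RPKM or more. Tceal1, an X-linked gene of the elongation factor A-like family, had 7.02, 4.89 and 1.50 RPKM on day 6 and 13.24, 11.38 and 2.78 RPKM on day 10. Rhox6, a homeobox gene of an X-linked cluster expressed in placenta and germ cells, went the other way, with 1.41, 1.45 and 6.90 RPKM on day 6 and 1.60, 1.27 and 5.80 RPKM on day 10. Its neighbour Rhox9 had 0.53, 0.66 and 4.00 RPKM on day 6 (-2.13 [-4.14 to -1.94]) and a day 10 difference of -1.45. Of 417 X-linked genes compared, 19 were higher and 8 lower (6.47% in all, beside 2.62% over all genes). Ifitm2, an interferon-induced membrane protein gene on an autosome, had 119.01, 119.23 and 46.68 RPKM on day 6 (1.34 [1.16 to 1.54]) and a day 10 difference of 2.15.

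Imprinted genes, which are expressed from 1 parental allele, were near wild type as a list, with a median of 0.08 over 19 of 26 genes, against 0.66 in the untreated knockout. The exceptions were Mest, a maternally imprinted gene of mesoderm and placenta, and Igf2, the fetal growth factor. Mest had 515.51 RPKM in the Dkk-treated knockout, 330.22 in the untreated knockout and 122.61 in wild type (2.07 [1.96 to 2.19]), and the day 10 difference was 0.80. Igf2 had 22.99, 175.66 and 10.45 RPKM (1.10 [0.79 to 1.49]), and H19, which shares its control region, had 5.52, 56.96 and 3.74 RPKM (0.51). Mest was therefore farthest from wild type with Dkk, while Igf2 and H19 were far closer to wild type with Dkk than without. None of 11 genes of DNA methylation and demethylation that reached 1 RPKM passed 2-fold.

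Of 23 listed neuron genes, 20 reached 1 RPKM on day 6. None was higher and 5 were lower, beside 1.65% and 0.967% over all genes. In all, 15 of the 20 lay below 0, with a median of -0.51, against -0.76 in the untreated knockout. Tubb3, the neuronal beta-tubulin, had 45.65 RPKM in the Dkk-treated knockout, 33.96 in the untreated knockout and 93.35 in wild type (-1.02 [-1.17 to -0.89]); it lies on chromosome 8. Elavl4, a neuronal RNA-binding protein gene, had 3.09, 4.03 and 7.37 RPKM (-1.13 [-1.57 to -0.94]), and the basic helix-loop-helix gene Nhlh1 had 1.58, 1.79 and 4.09 RPKM (-1.14 [-1.93 to -0.83]). The other lower genes were Nhlh2 (-1.08) and Elavl3 (-1.07). Robo3, an axon guidance receptor of commissural neurons, had 1.23, 2.13 and 5.70 RPKM (-1.84 [-2.68 to -1.77]) and a day 10 difference of 0.30. On day 10 the neuron list had a median of 0.02, with 1 gene lower and none higher, and Elavl4 still had a difference of -0.65; the difference between the days was not tested. Tubb3 then had 884.92, 599.43 and 615.65 RPKM. The neural progenitor list stood at a median of -0.05, and 1 of 22 genes was called: Zic1, a zinc finger gene of the dorsal neural tube, had 14.47, 2.74 and 3.68 RPKM (1.84 [1.67 to 2.31]). On day 10 Zic1 had 16.56 RPKM in the Dkk-treated knockout, 17.08 in the untreated knockout and 2.81 in wild type.

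Pluripotency genes went in both directions. Of 24 listed, 18 reached 1 RPKM, with a median of -0.03. Of these, 2 were higher and 5 lower, beside 1.65% and 0.967% over all genes. Tdgf1, a Nodal coreceptor, had 14.59 RPKM in the Dkk-treated knockout, 9.18 in the untreated knockout and 4.98 in wild type (1.46 [1.10 to 2.04]), and the epiblast growth factor gene Fgf5 had 4.72, 2.94 and 1.68 RPKM (1.26 [0.85 to 2.21]). Eras, a Ras gene of ES cells, had 17.15, 8.08 and 3.0 RPKM (2.33 [1.96 to 3.08]). Pou5f1 was above wild type by 0.69. The lower genes were genes of the naive state, such as Dppa5a with 8.66, 12.41 and 20.53 RPKM (-1.20 [-1.73 to -0.78]) and Dppa4 with 0.79, 0.57 and 3.13 RPKM (-1.49 [-3.03 to -0.93]). The others, Dppa3, Gdf3 and Klf2, had under 3 RPKM in either library. Klf2 lies on chromosome 8, and Dppa3 and Gdf3 at the end of chromosome 6. Dppa4, Dppa3, Gdf3 and Klf2 passed the limit of 1 RPKM through wild type alone, so they could not be called higher. On day 10 the list had a median of -1.20, with 1 gene higher and 10 lower; Pou5f1 then had 6.55, 3.06 and 20.26 RPKM (-1.56).

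Among lists of other cell types, endoderm genes had a median of 0.69 over 15 of 21 genes (0.58 over all 21). Of the 15, 3 were higher and none lower, beside 1.65% and 0.967% over all genes. The list summed to 53.79 RPKM in the Dkk-treated knockout and 31.61 RPKM in wild type. The called genes were Cer1, Afp (3.19 and 0.99 RPKM in the Dkk-treated knockout and wild type) and Gata6 (1.38 and 0.40 RPKM, with an interval that includes 0). All 3 passed the limit of 1 RPKM through the Dkk-treated knockout alone, so they could not be called lower. Trophoblast genes had 1 higher and 3 lower of 7 at 1 RPKM, beside the same shares over all genes. They summed to 9.87 RPKM in the Dkk-treated knockout and 18.78 RPKM in wild type. The higher gene, Eomes, passed the limit through the Dkk-treated knockout alone, and the lower genes Rhox9 and Ctsj through wild type alone. The defining trophoblast markers were at or near 0: Prl3d1 was listed at 0 in both, Elf5 had 0.00 and 0.04 RPKM, and Tpbpa 0.00 and 0.07 RPKM in the Dkk-treated knockout and wild type. The cathepsin gene Ctsj had 0.07 and 1.23 RPKM in these libraries on day 6 and 0.48 and 14.12 RPKM on day 10. Cardiac genes had 1 higher of 5 at 1 RPKM, and their defining markers Nkx2-5 and Myh6 had 0.12 and 0.11 RPKM in the Dkk-treated knockout and 0.00 and 0.03 RPKM in wild type. Notch, Hedgehog, cell cycle, p53 and housekeeping lists had medians of 0.07, 0.07, -0.07, 0.01 and 0.07, with no gene past 2-fold. The part of cells of other types in the differences above was not tested.

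Smaller groups and single genes filled the rest of the calls. Sct, the gene of the hormone secretin, had 0.55 RPKM in the Dkk-treated knockout, 3.82 in the untreated knockout and 5.02 in wild type (-2.39 [-5.54 to -1.47]), from 3 and 26 estimated reads in the Dkk-treated knockout and wild type. Cldn4, a tight junction claudin, had 1.86, 5.23 and 6.92 RPKM in the day 6 libraries (-1.65 [-2.50 to -1.37]). Its relative Cldn6, an epithelial claudin, lay on the other side, with 13.19, 30.87 and 5.78 RPKM (1.12 [0.81 to 1.57]), and was the 1 gene called among 9 epidermis and surface ectoderm genes at 1 RPKM (median 0.27, or 0.00 over all 19 listed). Mogat2, an enzyme of triglyceride synthesis, had 7.35, 15.72 and 1.66 RPKM (1.86 [1.38 to 2.96]). Efemp1, a matrix glycoprotein, had 4.19, 5.51 and 0.63 RPKM (2.05 [1.62 to 4.37]), and Capn6, an X-linked calpain-like protein, had 4.30, 5.93 and 0.80 RPKM (1.88 [1.87 to 3.0]). Mogat2, Efemp1 and Capn6 thus stayed above wild type in each knockout library on day 6; their day 10 differences with Dkk were -0.49, -0.46 and -0.04.

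Of 7 neural crest genes at 1 RPKM (median -0.37, but 0.02 over all 15 listed), Sox9, also a glial and cartilage factor, was higher with 7.53, 5.11 and 3.40 RPKM (1.04 [0.86 to 1.44]). The defining crest marker Sox10 had 0.21 RPKM in the Dkk-treated knockout and 0.04 RPKM in wild type. Of 16 TGF-beta, Nodal and BMP genes (median 0.21), the BMP antagonist Nog (1.12) and the ligand Bmp2 (1.08) were higher and Gdf3 lower. Nog and Bmp2 passed the limit of 1 RPKM through the Dkk-treated knockout alone, and Gdf3 through wild type alone. The filter thus fixed the direction in which each of them could be called. The smooth muscle actin gene Acta2 was the 1 call among 10 matrix and fibroblast genes (1.15, list median 0.15). Lists of hypoxia and glycolysis (Slc2a1 higher of 19, median 0.17), FGF (Fgf5 higher of 17, median -0.10), immediate early (Klf2 lower of 14, median -0.09), Cdx and retinoic acid genes (Aldh1a2 higher and Cyp26b1 lower of 9, median 0.31) and secreted Wnt antagonists (Cer1 higher of 6, median -0.01) had their calls among genes already given. Of these calls, Aldh1a2 and Cer1 passed the limit of 1 RPKM through the Dkk-treated knockout alone, and Klf2 through wild type alone. Of 16 germline genes 4 reached 1 RPKM (median -1.70, but 0 over all 16), and Rhox9, Rhox6 and Tex19.1 were lower. Rhox9 and Tex19.1 passed the limit through wild type alone, so they could not be called higher. Of 16 endothelium and blood genes 3 reached 1 RPKM, and the embryonic globins Hbb-bh1 and Hba-x were lower, with intervals that include 0. Both globins passed the limit through wild type alone, so they could not be called higher.

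Small RNA genes among the largest differences rest on few reads. Mir130b, Snord69 and Snord57 had 1, 4 and 2 estimated reads in the Dkk-treated knockout and 7, 12 and 7 in wild type, and their intervals include 0. Snord82, with 10 and 31 estimated reads in these libraries, Snord16a, with 5 and 17, and Snora61, with 10 and 2, had intervals off 0.

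The differences were not spread evenly over the genome, a pattern seen after the values were examined. The 622 genes compared on chromosome 8 had a median of -0.45, a ratio of 0.731, with 92.9% of them below 0, no gene higher and 14 lower (2.25%). The other 19 chromosomes had medians of -0.09 to 0.14. The untreated knockout had a median of -0.49 on chromosome 8, and the Dkk-treated knockout differed from the untreated one there by 0.02. On day 10 the chromosome 8 median was -0.35 with 78.6% of genes below 0, while the other chromosomes lay between -0.19 and 0.26. Control cells of the FBS culture on day 4, another differentiation with serum, also stood below the day 6 wild-type library on chromosome 8, by -0.54, against -0.08 over all genes; the next lowest there was the X chromosome at -0.37.

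**Figure D4:**
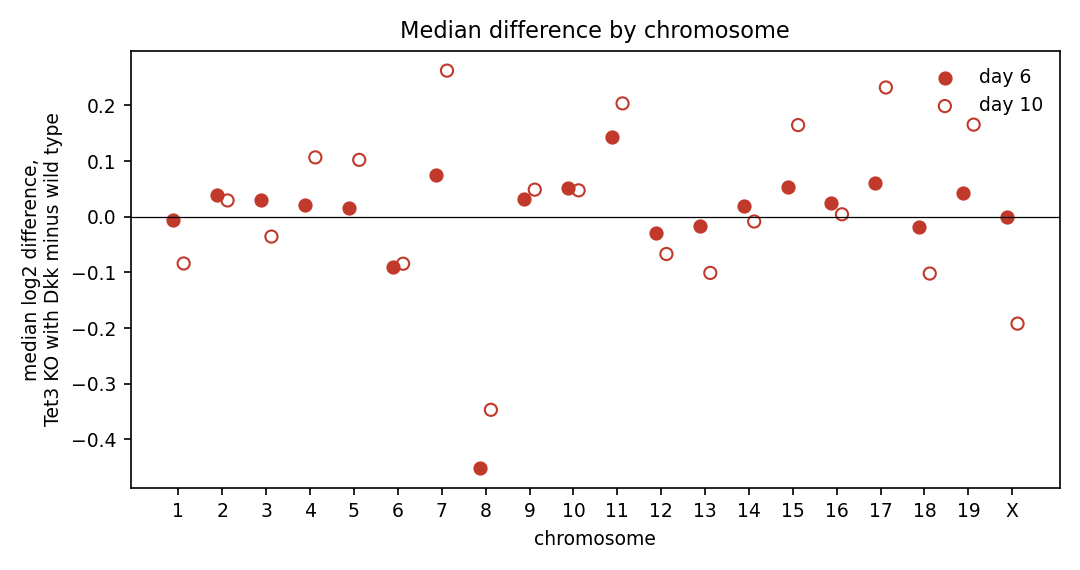
Median difference of the Dkk-treated knockout minus wild type (vertical axis, log2(RPKM + 0.5)) over the genes of each chromosome (horizontal axis), on day 6 (filled) and day 10 (open). Chromosome 8 lies at -0.45 on day 6 and -0.35 on day 10, below the other chromosomes on both days.

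In 202 windows of neighbouring genes at 5 RPKM or more, 8495 genes in all, each of the 12 windows of chromosome 8 had a median of -0.57 to -0.38, and 496 of their 516 genes were below 0. The last 3 of 9 windows of chromosome 6, from Fancd2 to the end, had medians of -0.37, -0.38 and -0.43, with 120 of 129 genes below 0, whereas its first 6 windows lay between -0.14 and 0.12. The last of 9 windows of chromosome 3, from Ddit4l to Wls, had a median of 0.55 with 42 of 42 genes above 0, and the first 8 lay between -0.07 and 0.14. The other 186 windows lay between -0.14 and 0.23. In the untreated knockout on day 6 the chromosome 3 window had a median of 0.66 and the chromosome 6 windows -0.40, -0.37 and -0.40. On day 10 the windows varied more: those of chromosome 8 lay between -0.61 and 0.05 with Dkk, and the last window of chromosome 3, at 0.26, was below the fourth window of that chromosome, at 0.32. The shift began between neighbouring windows on chromosomes 3 and 6, and on day 6 it was there with and without Dkk. The files used here hold no measure of DNA copy number, and the cause was not tested. Genes named above on chromosome 8 are Irx3, Irx5, Tubb3, Sox1, Klf2 and Zfp42. Those on the end of chromosome 6 are Nanog, Dppa3, Gdf3 and Lrp6, and Wls lies on the end of chromosome 3.

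**Figure D5:**
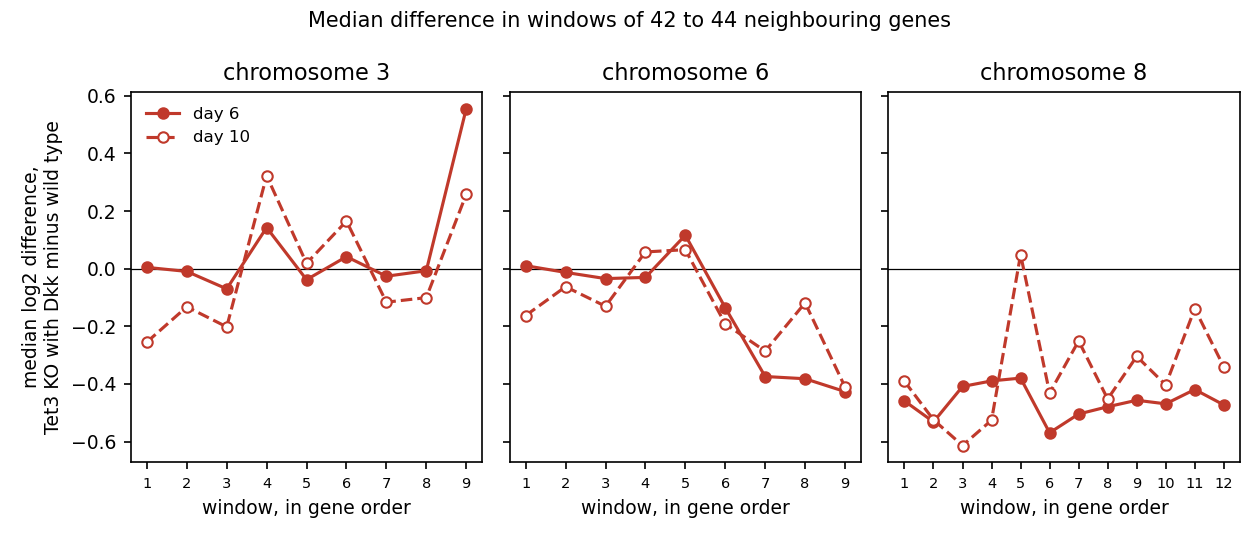
Median difference of the Dkk-treated knockout minus wild type (vertical axis, log2(RPKM + 0.5)) in consecutive windows of 42 to 44 neighbouring genes (horizontal axis, in gene order) on chromosomes 3, 6 and 8, on day 6 (filled, solid line) and day 10 (open, dashed line). On day 6 the last window of chromosome 3 lies at 0.55, the last 3 windows of chromosome 6 at -0.43 to -0.37 and the 12 windows of chromosome 8 at -0.57 to -0.38.

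The day 10 libraries, which are separate libraries, repeated part of the day 6 differences. On that day 5.30% of the same genes were 2-fold or more from wild type in either direction. Of the 188 genes higher on day 6, 59 were again 2-fold higher on day 10 (31.4% of the day 6 list and 13.0% of the 455 day 10 genes), 13 were 2-fold lower, and 139 lay on the same side of 0. Of the 110 lower genes, 30 were again lower (27.3% of the day 6 list and 20.3% of the 148 day 10 genes), 10 were higher, and 70 lay on the same side. The day 10 medians of these lists were 0.64 and -0.39, beside 0.03 over all genes. Emx2 kept a difference of 2.25, with 7.55 RPKM in the Dkk-treated knockout, 0.99 in the untreated knockout and 1.19 in wild type. Otx2 passed 2-fold on day 10, with 73.59, 7.10 and 26.28 RPKM in the same libraries (1.47). T did the opposite, with 1.90, 2.19 and 7.52 RPKM (-1.74). Eras had 0.59, 0.34 and 1.63 RPKM on day 10, a difference of -0.97 where day 6 had 2.33. Barhl2 (1.86), Fezf1 (1.71) and Otx1 (1.88) again passed 2-fold above wild type on day 10, as did Emx2 and Wnt8b.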

How the data were processed

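RNA was sequenced in 10 libraries, 1 for each condition and day; 6 came from the SFEB culture. Per the labels' protocols, total RNA libraries were made with the SOLiD kit. The authors deposited RPKM values, rounded to 2 decimals; the submitters' processing notes name HTSeq and the build mm9. The sources used here give neither aligner nor annotation, strand setting or handling of multiply mapped reads, so close paralogs, overlapping genes and very short genes are uncertain. Since RPKM are no counts, count models were not fitted.

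Genes at 1 RPKM or more in either library were compared on log2(RPKM + 0.5), at 2-fold. Read totals were estimated from the steps of values up to 1 RPKM of 3932 genes with 1 transcript in GENCODE vM21; 69.3% to 75.2% of them lay at most 0.15 read from a whole number. The total of the Dkk-treated knockout on day 10 rests on the fewest values, 102, and is the least certain. Reads of each gene were estimated from its RPKM, the read total and the median length of its GENCODE vM21 transcripts. From these estimated reads, 95% Clopper-Pearson intervals were computed. The procedure was tested on simulated data. Gene names, biotypes, gene order and promoters came from RefSeq GRCm38.p6, which is not the files' build; 11314 of 11373 symbols matched. Python 3.11.15, pandas 2.3.3, NumPy 2.4.6, SciPy 1.17.1 and Matplotlib 3.10.9 were used.

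The comparison, 34 gene lists (586 genes, 6 matched by an older symbol) and rules were chosen with earlier results of these data known. Genes named are the 12 with the largest and the 12 with the smallest difference at 5 RPKM or more, 8 that stayed different and 8 that went past wild type, up to 3 each way per list, and some fixed by name. Other members named for a small count, and the markers of other cell types, were chosen after their values were seen. So were Zfp42, Nes, Fzd5, Fzd7, Lrp6, En2, Irx3, Ifitm2 and Wls. Some genes that these rules name are not reported here. Alternatives covered pseudocount, filter, scaling, threshold, chromosome 8 and small RNA genes.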

Additional observations from a re-analysis of the deposited data

Results flagged for a closer look

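For 7 of the genes that the naming rules select, out of the 13 higher and 10 lower genes with opposite calls on the 2 days, the Dkk-treated knockout lay 2-fold or more on 1 side of wild type on day 6 and on the other side on day 10; the difference between the days was not tested, and each day has 1 library a side. The endoderm gene Afp had differences of 1.31 on day 6 and -1.96 on day 10. Fgf5 had 1.26 on day 6 and -1.76 on day 10. Tdgf1 had 1.46 on day 6 and -1.27 on day 10. T had 2.16 on day 6 and -1.74 on day 10. The untreated knockout stood at 3.19 on day 6 and -1.58 on day 10 for T, so it changed side as well. The small RNA genes Mir130b (-2.43 on day 6 and 1.56 on day 10), Snora61 (1.95 and -1.41) and Snord16a (-1.65 and 1.34) rest on 17 estimated reads or fewer in either day 6 library.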

How the results depend on the processing

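With 1 library a side, no difference has a replicate error, and RPKM of low genes rest on few reads. No paired analysis was possible because each condition and day had 1 library. A pseudocount of 0.1 gave 286 higher genes, 221 left different, 25 past wild type, and 109 higher and 46 lower genes repeated on day 10. A pseudocount of 1 gave 113 higher, 83 left different, 7 past wild type, and 33 and 16 repeated. A filter of 5 RPKM gave 75 higher, 35 lower, 45 left different, and 25 and 7 repeated. At 3-fold there were 45 higher, 41 lower, 39 left different and 0 past wild type. Leaving out small RNA genes, an alternative chosen after seeing the data, gave 67 lower. Without a filter, with libraries rescaled to equal sums or centred on the median, and without chromosome 8 (also chosen after seeing the data), each of these counts stayed within 1.5 times. Of 230 list medians under 8 alternatives 10 moved by 0.25 or more; without the filter the trophoblast median was -0.08 in place of -0.88 and that of neural crest 0.02 in place of -0.37, and with the filter of 5 RPKM the hindbrain and spinal cord median was -0.98 and that of pluripotency 0.48.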
